A study of Mus musculus with 18 samples.

Results

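The creatine cycling genes examined here are Ckb, Ckmt1, Ckmt2, Gatm, Gamt, Slc6a8 and Alpl, taken by gene name from a table of total RNA sequencing counts. They are 7 of its 45706 genes. In creatine cycling, creatine kinase moves phosphate from ATP to creatine and a phosphatase removes it again, so that ATP is spent and heat is released. Brown fat is known for this cycle as a route to heat that can run beside uncoupling protein 1. The cell can import its creatine or build it from arginine and glycine.

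The cells were BMC, an immortalised mouse brown preadipocyte line, differentiated in culture and labelled as brown adipocytes. All groups shared the differentiation: dexamethasone at 1 µM, isobutylmethylxanthine at 0.5 mM, indomethacin at 0.125 mM, insulin at 20 nM and triiodothyronine at 1 nM at the start, then the last of these and insulin alone until day 7. The 3 groups are labelled 0 h and not induced, 4 h induced and 24 h induced, with 1 µM norepinephrine as the inducer and 6 libraries in each, replicate numbers 1 to 6. The design text asks which transcripts differ before and after norepinephrine starts lipolysis. The line is immortalised, and the labels give no strain, genetic change or culture of origin for a library, so p-values reflect the spread among the libraries alone, and that spread may be technical.

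Libraries held 7.01 to 26.5 M (mega) expected counts. The library of replicate 5 at 24 h stood apart, with 41.5% of its counts in the noncoding genes Yam1 and Gm26917, against 6.78% to 10.6% in the other 17. Across labelled times the libraries grouped by the numbers in their titles, 1 with 4, 2 with 5 and 3 with 6. For the median gene tested, these number sets held 62.7% of the variance over libraries and the labelled time 3.78%. The labels do not say what a number stands for. Whether the labelled times and the numbers are attached to the libraries as intended was not tested, and if they were not, every value given below by time or by set would change its meaning. The sets were formed because their libraries resembled each other, so comparisons between sets are read against the share of all genes called in them. Of 14 brown adipocyte markers, 14 had counts: Fabp4, a fatty acid carrier, reached 1807 to 2884 CPM (counts per M of normalised library size), while Ucp1, the uncoupling protein, reached only 1.08 to 18.03 CPM.

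The sequences before the start sites of Alpl, Gamt and Ckb are shown because these genes carry the differences below, and because Alpl has 2 annotated starts that gene-level counts do not separate. All are 250 bases up to the start site, minus strand, 5′ to 3′, from RefSeq on GRCm38.p6, whose table held windows for 6 of the 7 genes and none for Slc6a8. The Alpl windows lie 29.91 kb apart, at chr4:137796385-137796634 and chr4:137766476-137766725. The Gamt window is chr10:80261013-80261262 and the Ckb window chr12:111672339-111672588. Capitals mark every match, on either strand, to 5 motifs: the cAMP response element half-site TGACG, the extended nuclear receptor half-site AAGGTCA, the TATA box TATAAA, the CCAAT box CCAAT and the GC box GGGCGG.
Alpl upstream start: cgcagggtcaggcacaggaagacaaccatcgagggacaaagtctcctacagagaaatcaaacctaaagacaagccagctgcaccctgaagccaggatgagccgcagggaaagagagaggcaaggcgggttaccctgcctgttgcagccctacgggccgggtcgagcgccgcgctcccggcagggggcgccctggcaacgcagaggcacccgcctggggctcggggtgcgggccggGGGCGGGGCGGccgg
Alpl downstream start: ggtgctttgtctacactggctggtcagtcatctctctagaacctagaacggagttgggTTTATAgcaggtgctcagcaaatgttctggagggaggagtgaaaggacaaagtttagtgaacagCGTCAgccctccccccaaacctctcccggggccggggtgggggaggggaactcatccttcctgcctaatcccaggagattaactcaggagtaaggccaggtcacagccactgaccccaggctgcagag
Gamt: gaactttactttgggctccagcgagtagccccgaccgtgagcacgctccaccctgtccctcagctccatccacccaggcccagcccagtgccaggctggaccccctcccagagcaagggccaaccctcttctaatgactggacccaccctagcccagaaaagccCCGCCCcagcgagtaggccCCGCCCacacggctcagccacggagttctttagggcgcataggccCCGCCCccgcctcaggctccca
Ckb: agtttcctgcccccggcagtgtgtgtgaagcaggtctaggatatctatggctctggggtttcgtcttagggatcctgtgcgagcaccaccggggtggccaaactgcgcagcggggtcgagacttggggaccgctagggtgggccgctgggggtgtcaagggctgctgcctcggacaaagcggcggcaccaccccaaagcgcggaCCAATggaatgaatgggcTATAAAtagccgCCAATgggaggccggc

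The windows before the 2 Alpl starts shared none of these motifs. The window of the upstream start was 68.4% G and C and held 2 overlapping GC boxes, whose first bases lie at -15 and -10 from the start site. The other window was 56.0% G and C and held a half-site of the cAMP response element, read as CGTCA at -128, and a TATA box in reverse at -192. The Gamt window held 3 GC boxes in reverse, at -86, -67 and -22. The Ckb window held a TATA box at -28 between CCAAT boxes at -46 and -16. Among 32851 windows of the same length, 17.8% held the cAMP half-site, 4.08% the nuclear receptor half-site, 12.4% the TATA box, 33.8% the CCAAT box and 32.7% the GC box. A match describes letters only.

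Only the importer, the last synthetic enzyme and the phosphatase of the cycle were well detected. Slc6a8, the creatine transporter of the plasma membrane, collected 8170 counts over the 18 libraries. Gamt, which methylates guanidinoacetate to creatine, collected 4063 counts, and Alpl, the tissue-nonspecific alkaline phosphatase that can hydrolyse phosphocreatine, collected 9575. These 3 genes passed the filter on low counts, with 14788 genes tested in all, and the 4 others did not.

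The creatine kinase genes of the set were low, and only Ckb was detected in every library. Ckb, the cytosolic brain-type kinase assigned to creatine cycling in thermogenic fat, had 154 counts in all and at least 1 in 18 of 18 libraries. Its pooled level was 0.437 CPM, with an exact Poisson interval (95%, counting error only) of 0.370 to 0.511. Ckmt1, the ubiquitous mitochondrial kinase, had 12 counts in 9 libraries, or 0.0340 CPM with an interval of 0.0176 to 0.0594. Ckmt2, the sarcomeric mitochondrial kinase, had 0 counts over all libraries, with an interval of 0 to 0.0105 CPM. Gatm, which makes guanidinoacetate from arginine and glycine, had 2 counts, 1 in replicate 3 at 4 h and 1 in replicate 3 at 24 h. The muscle kinase Ckm, outside the set, also had 2 counts. Counts this low leave even large changes in Ckmt1, Ckmt2 or Gatm undetectable. In edgeR's test with no filter on low counts, Ckmt1 and Gatm were not called in any comparison. That held even at log2 fold changes of 2.17 for Ckmt1 (number 4 against 1) and 1.72 for Gatm (numbers 3 and 6 against 1 and 4). The lack of a call therefore does not show that these genes were unchanged.

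Levels can be compared between genes only per length, here as CPM per kilobase of annotated exon. Over the 18 libraries Gamt stood at 7.69 ± 1.90 CPM per kilobase (SD, n = 18), Alpl at 6.78 ± 2.99 and Slc6a8 at 4.50 ± 0.528. Gamt and Alpl did not differ beyond their spread. Ckb followed at 0.151 ± 0.0754 CPM per kilobase, far under the range of the 3 detected genes. The order changed with the number set. In numbers 1 and 4, Alpl led with 10.2 ± 0.646 CPM per kilobase (SD, n = 6), then Gamt with 9.52 ± 0.374 and Slc6a8 with 4.27 ± 0.333, with Alpl and Gamt within their spread. In numbers 3 and 6, Alpl was the lowest of the 3 with 3.25 ± 0.424, under Slc6a8 with 4.89 ± 0.379 and Gamt with 8.03 ± 1.27. Numbers 2 and 5 had the order of numbers 1 and 4, with 6.86 ± 0.757 for Alpl, 5.52 ± 0.801 for Gamt and 4.33 ± 0.647 for Slc6a8. The length of the longest transcript, used in place of all exons, gave higher values (10.8 for Alpl, 11.2 for Gamt and 5.91 for Slc6a8 over all libraries) with the same order in each set.

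**Figure D1:**
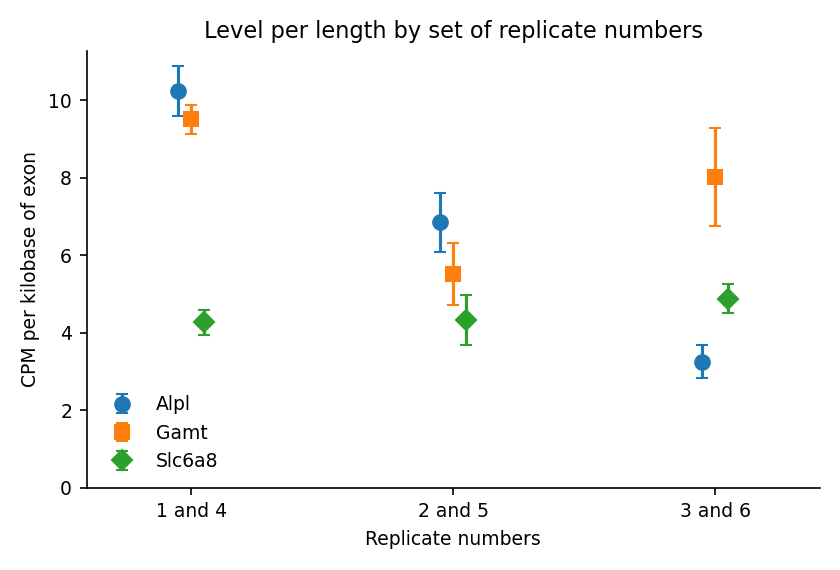
Level per kilobase of exon (y axis, CPM per kilobase) of Alpl, Gamt and Slc6a8 in the 3 sets of replicate numbers (x axis); points are means of 6 libraries and bars 1 SD. Alpl is the highest of the 3 in numbers 1 and 4 and the lowest in numbers 3 and 6.

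Alpl separated the number sets completely. The gene (ENSMUSG00000028766, chr4:137741733-137796384, minus strand, mm10 with GENCODE M21) overlaps no other annotated gene. In numbers 1 and 4 its level was 39.8 and 43.1 CPM at 0 h, 42.4 and 42.4 at 4 h, and 43.3 and 36.6 at 24 h, for number 1 and then number 4. In numbers 2 and 5 it was 25.8 and 29.5 CPM at 0 h, 28.9 and 32.2 at 4 h, and 25.3 and 24.2 at 24 h. In numbers 3 and 6 it was 14.3 and 15.4 CPM at 0 h, 12.8 and 11.3 at 4 h, and 13.8 and 11.1 at 24 h. Every library of numbers 1 and 4 was above every library of numbers 2 and 5, and those were above every library of numbers 3 and 6, while the labelled times overlapped throughout. Libraries of 2 sets failed to overlap in this way for 35.3% of all genes between the first pair, 38.6% between the outer pair (19.1% higher and 19.5% lower) and 29.8% between the last pair. Between labelled times this held for 0.0676% of genes at 4 h against 0 h, 0.0406% at 24 h against 0 h and 0% at 24 h against 4 h.

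The fall in Alpl was tested with edgeR's quasi-likelihood test across all genes, with labelled time in the model. From numbers 1 and 4 to 2 and 5 its log2 fold change was -0.57 (SE 0.06, adjusted p = 3.1e-08), from 1 and 4 to 3 and 6 it was -1.64 (SE 0.07, adjusted p = 1.62e-16), and from 2 and 5 to 3 and 6 it was -1.06 (SE 0.07, adjusted p = 4.44e-12). With numbers 3 and 6 against 1 and 4, it ranked 199 of 14788 genes from the lowest fold change upwards. The stepwise order, called lower from the first set to the second and again to the third, was shared by 5.21% of all genes. The number set held 96.1% of the variance of Alpl over the libraries, the labelled time 0.934%, and the 2 numbers within a set 0.464%.

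**Figure D2:**
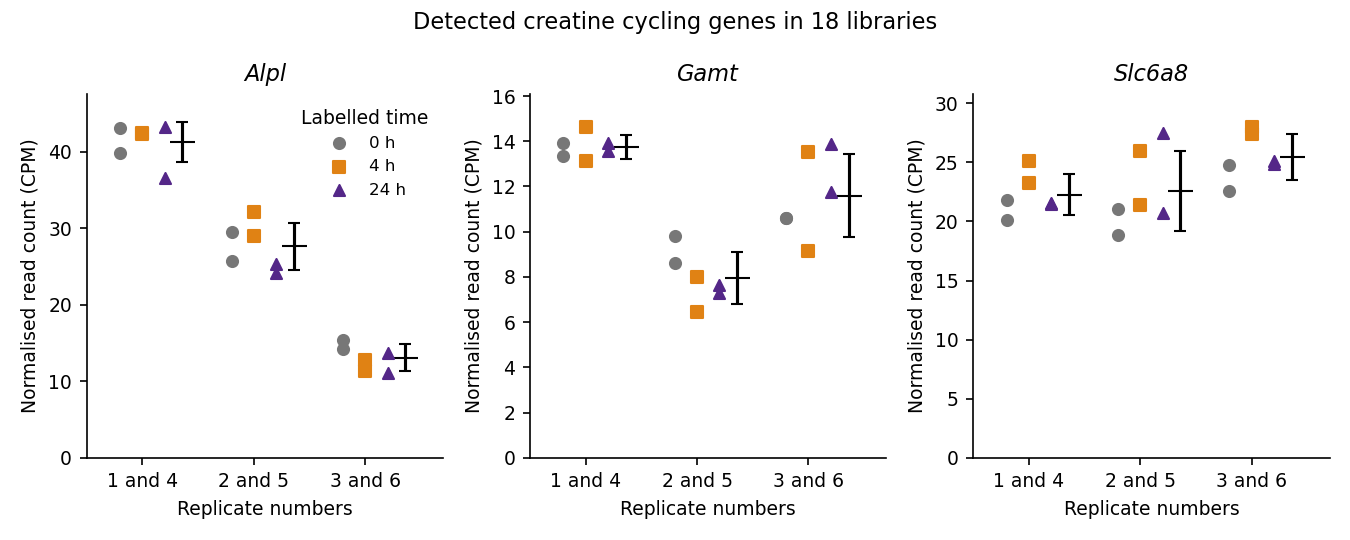
Normalised read count (CPM, y axis from 0) of Alpl, Gamt and Slc6a8 in each of the 18 libraries, by set of replicate numbers (x axis) and labelled time (symbol); the bar beside each set is the mean with 1 SD, n = 6. Alpl forms 3 bands without overlap, Gamt is lowest in numbers 2 and 5, and the sets overlap for Slc6a8.

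The sum of preadipocyte and fibroblast markers had the opposite order of sets to Alpl. The 12 preadipocyte and fibroblast markers, of which 12 had counts and 4 stayed under 1 CPM everywhere, summed to 828 to 964 CPM in numbers 1 and 4, 1065 to 1535 in numbers 2 and 5, and 1585 to 1984 in numbers 3 and 6. That sum was mostly the collagens Col1a1 and Col3a1, and not every single marker separated the sets in that order. Pi16 stayed under 1 CPM everywhere. Its highest library was at 0.808 CPM in numbers 1 and 4, 0.366 in 2 and 5 and 0.471 in 3 and 6. For Ly6a the highest library was at 1.56, 4.97 and 3.48 CPM in the same order of sets. Each of these values is a single library, and for both genes the ranges of all sets overlapped, so neither gene gives another order. The part of these markers in the result for Alpl was not tested, and in bulk RNA fewer cells of a type and less RNA per cell cannot be told apart. Alpl also marks bone-forming cells. Of 10 osteoblast and chondrocyte markers, Ibsp was at 0 and 8 stayed under 1 CPM everywhere. Their sum, nearly all Runx2 and Sox9, was 22.4 to 27.3 CPM in numbers 1 and 4, 48.7 to 60.3 in numbers 2 and 5, and 47.0 to 58.9 in numbers 3 and 6, so this sum was lowest where Alpl was highest and overlapped between the other sets. The 14 brown adipocyte markers summed to 4080 to 4281 CPM in numbers 1 and 4, 3000 to 3480 in numbers 2 and 5, and 3358 to 4144 in numbers 3 and 6. Single markers of that list differed in direction. Plin1, the coat protein of lipid droplets, was at 341 to 394 CPM, 101 to 119 CPM and 151 to 188 CPM in the same order of sets, Adipoq, the hormone adiponectin, at 418 to 480, 536 to 657 and 683 to 876 CPM, and Pparg, the main adipocyte regulator, at 128 to 139, 121 to 155 and 119 to 137 CPM. These 3 were chosen after their values were seen.

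Gamt was lowest in numbers 2 and 5 and did not follow the order of Alpl. The gene (ENSMUSG00000020150, chr10:80258151-80261012, minus strand) overlaps no other annotated gene. Its level in numbers 1 and 4 ran from 13.1 to 14.6 CPM with a median of 13.7, in numbers 2 and 5 from 6.44 to 9.80 with a median of 7.81, and in numbers 3 and 6 from 9.15 to 13.9 with a median of 11.2. Numbers 2 and 5 stayed wholly under 1 and 4. The 3 and 6 libraries spread widely and overlapped both, with 13.5 and 13.9 CPM for replicate 3 at 4 h and 24 h against 9.15 for replicate 6 at 4 h.

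In edgeR's test Gamt fell from numbers 1 and 4 to 2 and 5 with a log2 fold change of -0.74 (SE 0.09, adjusted p = 2.31e-07). It rose again from 2 and 5 to 3 and 6 by 0.52 (SE 0.10, adjusted p = 5.63e-05). The pattern of a called fall and then a called rise was shared by 14.5% of all genes. The difference between numbers 3 and 6 and 1 and 4 was small, at -0.23 (SE 0.09, edgeR adjusted p = 0.0241). It missed the threshold without any one of 4 libraries (replicates 3 and 6 at 0 h and replicates 1 and 6 at 4 h), at -0.19 to -0.18 with adjusted p of 0.0598 to 0.0823. Without number 1 it was -0.20 (adjusted p = 0.164) and without number 4 it was -0.26 (adjusted p = 0.0616), both near the value from all libraries, and without number 6 it shrank to -0.12 (adjusted p = 0.274). It also missed it with library totals as the scaling, at -0.08 (adjusted p = 0.756). The number set held 80.0% of the variance of Gamt.

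Slc6a8 varied least among the 3 detected genes, and differed little between number sets. The gene (ENSMUSG00000019558, chrX:73673150-73682502, plus strand) overlaps no other annotated gene. Its level ran from 20.2 to 25.1 CPM in numbers 1 and 4, from 18.9 to 27.5 in numbers 2 and 5 and from 22.6 to 28.02 in numbers 3 and 6, and all sets overlapped. Numbers 2 and 5 against 1 and 4 gave a log2 fold change of -0.02 with an interval of -0.14 to 0.09 (edgeR adjusted p = 0.746). Numbers 3 and 6 were higher by 0.19 than 1 and 4 (SE 0.05, adjusted p = 0.00247) and by 0.21 than 2 and 5 (SE 0.05, adjusted p = 0.00147). Without number 4 the first was 0.16 and narrowly missed the threshold (adjusted p = 0.0545). The second rests on number 2, without which it was 0.09 (adjusted p = 0.245). With library totals the first also missed the threshold, at 0.36 (adjusted p = 0.0798).

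Counted over the tested members, 2 of 3 were called lower and 0 higher in numbers 2 and 5 against 1 and 4, where 59.5% of all genes were called, 29.6% higher and 29.9% lower. In numbers 3 and 6 against 1 and 4, 2 were called lower and 1 higher, beside 59.7% of all genes, 30.2% higher and 29.5% lower. In numbers 3 and 6 against 2 and 5, 1 was called lower and 2 higher, beside 57.1% of all genes, 28.6% higher and 28.5% lower. With so many genes called, these counts are no result about the creatine genes, whose members moved in different directions. Between the 2 numbers of a set, 0 of 3 members were called in any of 3 comparisons by edgeR, beside 0.00676% of all genes for number 4 against 1 and 0% for the other pairs. At an unadjusted p under 0.05 there were 2 (Slc6a8 for number 5 against 2 and Gamt for number 6 against 3), and DESeq2 and limma-voom also called 0.

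**Figure D3:**
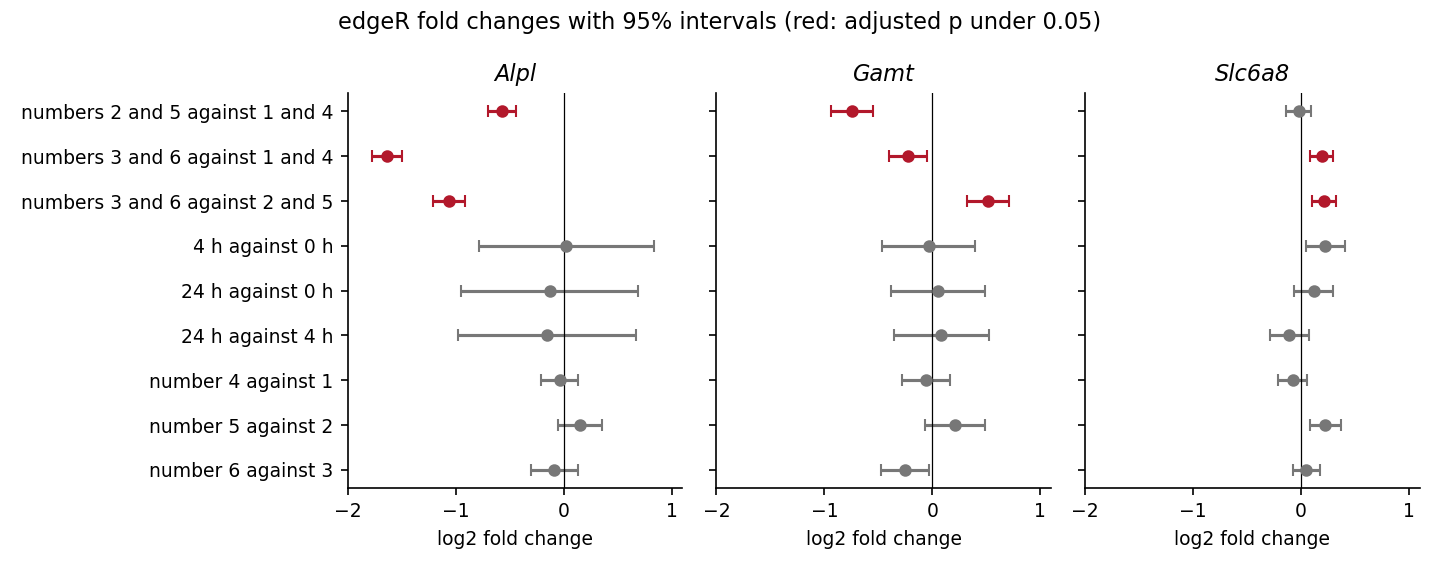
Log2 fold changes (x axis) of Alpl, Gamt and Slc6a8 in 9 comparisons (y axis) from edgeR, with 95% intervals; red marks an adjusted p under 0.05 over all 14788 genes. For Alpl the intervals between sets lie far from 0 and those between labelled times span it, while for Slc6a8 the interval at 4 h against 0 h lies above 0 without passing the adjusted threshold.

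Ckb, too sparse for the main test, was highest in the same set as Alpl. Pooled over 6 libraries it had 73 counts in numbers 1 and 4, or 0.600 CPM with an exact Poisson interval of 0.470 to 0.754. It had 39 counts in numbers 2 and 5, or 0.399 CPM with an interval of 0.284 to 0.546, and 42 counts in numbers 3 and 6, or 0.315 CPM with an interval of 0.227 to 0.426. The intervals of the outer sets do not overlap, but those of single libraries do: number 4 at 24 h had 1 count and 0.0974 CPM, under every library of the other sets. With no filter on low counts, edgeR gave Ckb a log2 fold change of -0.89 for numbers 3 and 6 against 1 and 4 (adjusted p = 0.0204) and of -0.55 for 2 and 5 against 1 and 4 (adjusted p = 0.233). That fit called 9178 of 26331 genes in the first comparison, 4579 of them lower, and 8966 in the second. By labelled time the pooled level was 0.433 CPM at 0 h, 0.471 at 4 h and 0.410 at 24 h, within each other's intervals.

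**Figure D4:**
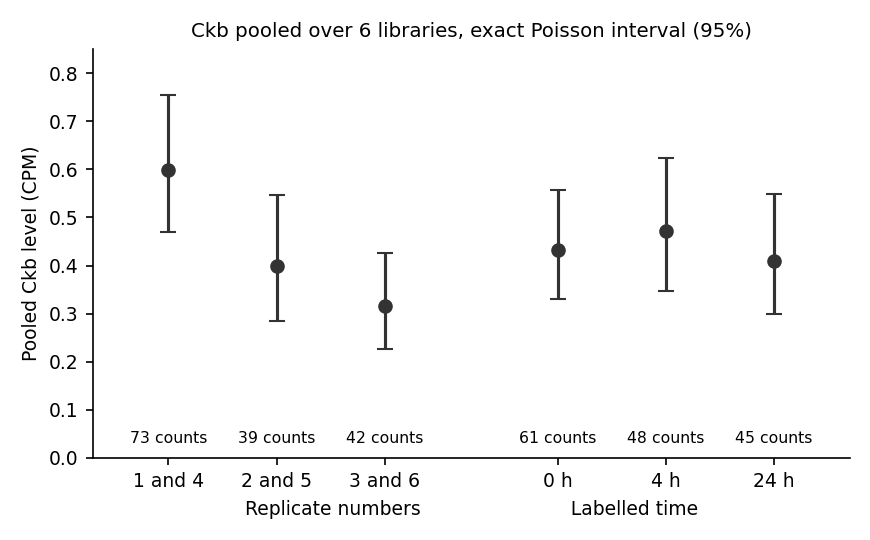
Level of Ckb (CPM, y axis) pooled over the 6 libraries of each set of replicate numbers and of each labelled time (x axis), with exact Poisson intervals (95%, counting error only) and the total count below each point. The interval of numbers 1 and 4 lies above that of numbers 3 and 6, and the 3 times overlap.

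No creatine gene was called between labelled times in the main test. By edgeR 0 of 3 tested members were called at 4 h against 0 h, at 24 h against 0 h or at 24 h against 4 h, where 0% of all genes were called. At an unadjusted p under 0.05 there was 1 (Slc6a8 at 4 h), and DESeq2 and limma-voom also called 0. Alpl had a log2 fold change of 0.02 at 4 h, with an interval of -0.79 to 0.83, and of -0.13 at 24 h, with an interval of -0.95 to 0.69. Gamt had -0.03 at 4 h (interval -0.47 to 0.40) and 0.05 at 24 h (interval -0.39 to 0.49). These intervals are wide because the number sets spread the 6 libraries of each time, and in the model blocked on replicate number the interval of Alpl at 4 h was -0.14 to 0.13. The blocked edgeR model also called 0 members. There only Slc6a8 was at an unadjusted p under 0.05, in all 3 comparisons. Of all genes 1461, 1155 and 757 were so at 4 h and 24 h against 0 h and at 24 h against 4 h. Whether members respond to time differently in the 3 sets was tested by an interaction term, and 0 of 3 were called (0% of all genes), with the smallest unadjusted p at 0.0903 for Gamt.

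Slc6a8 was the exception in how much of its variance followed the labels. The labelled time held 31.4% of it, which placed the gene at percentile 98.5 of all genes, beside 29.2% for the number set. At 0 h its level was 18.9 to 24.7 CPM with a median of 21.4, at 4 h 21.4 to 28.02 with a median of 25.6, and at 24 h 20.7 to 27.5 with a median of 23.2. The times overlapped, but within each number the 4 h library was above the 0 h library, in 6 of 6 numbers. The log2 difference was 0.20 in number 1, 0.18 in number 2, 0.28 in number 3, 0.21 in number 4, 0.30 in number 5 and 0.18 in number 6, a mean of 0.22 ± 0.052 (SD, n = 6). From 4 h to 24 h the level was lower in 5 of 6 numbers. The exception was number 5, whose 24 h library holds 83 counts of Slc6a8 and is the one that stood apart.

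**Figure D5:**
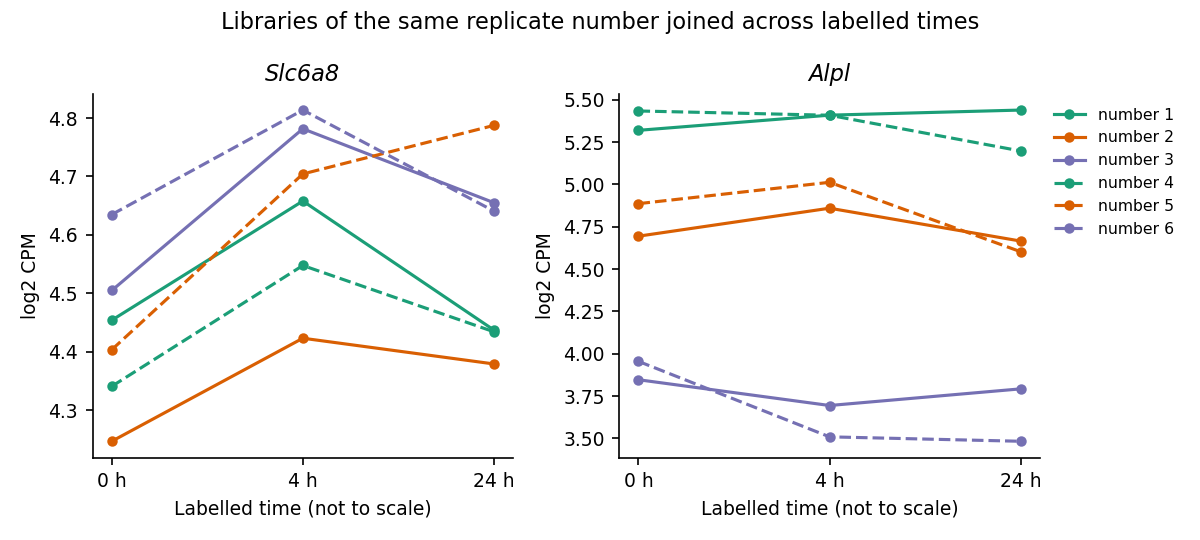
Log2 CPM (y axis, on its own scale in each panel) of Slc6a8 and Alpl at the 3 labelled times (x axis, not to scale), with libraries of one replicate number joined by a line; colours mark the sets, solid lines numbers 1 to 3 and dashed lines numbers 4 to 6. Slc6a8 is higher at 4 h than at 0 h in 6 of 6 numbers, and the sets form separate bands for Alpl.

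The 4 h difference of Slc6a8 did not pass the adjusted threshold in edgeR, with or without the block. The main model gave a log2 fold change of 0.23 (SE 0.09, interval 0.05 to 0.40, edgeR adjusted p = 1.00). With the replicate number as a block it was 0.23 (SE 0.05, edgeR adjusted p = 0.109), the smallest adjusted p that any gene reached there, shared by ties. With each library left out in turn the blocked adjusted p ran from 0.0892 to 0.345. An alternative chosen after these values were seen, limma-voom with the block and library weights, called it with the same size (adjusted p = 0.0226). That fit called 33 of all 14788 genes, 10 higher and 23 lower. Depth moved with the label: libraries held 22.2 ± 2.46 M counts at 0 h (SD, n = 6) and 16.2 ± 5.16 M counts at 4 h, and its part in this difference was not tested. At 24 h against 0 h the blocked value was 0.10 (SE 0.05, edgeR adjusted p = 0.635). At 24 h against 4 h it was -0.13 (SE 0.05, edgeR adjusted p = 0.921).

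Genes around the cycle were taken from 5 lists and read in the same comparisons, with the shares of all genes given above as background. The partners in phosphagen and adenylate handling, 17 genes that include adenylate kinases and mitochondrial ATP carriers, held more genes called lower than higher. Of 12 tested, 6 fell and 0 rose in numbers 2 and 5 against 1 and 4, with a median log2 fold change of -0.14, and 9 fell and 2 rose in numbers 3 and 6, with a median of -0.26. The medians of all genes were -0.0025 and 0.0042. With library totals as the scaling, 2 were called lower in each of these comparisons, and 0 and 1 higher. Ak4, a mitochondrial adenylate kinase, fell with Alpl from 18.6 ± 3.83 CPM (SD, n = 6) in numbers 1 and 4 to 11.7 ± 1.24 in 2 and 5 and 2.65 ± 0.372 in 3 and 6, a log2 fold change of -2.84 between the outer sets (SE 0.12, adjusted p = 8.17e-15). Vdac1, a pore of the outer mitochondrial membrane, fell by 0.59 on the log2 scale between those sets, from 243 ± 9.58 to 160 ± 13.2 CPM. Ak1, the cytosolic adenylate kinase, was lowest in numbers 2 and 5 as Gamt was, at 19.7 ± 1.18, 12.4 ± 1.34 and 22.0 ± 1.37 CPM, but it was higher in numbers 3 and 6 than in 1 and 4 (log2 fold change 0.17, SE 0.05, edgeR adjusted p = 0.00523), where Gamt was lower.

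The list for the supply of arginine, glycine and methyl groups, the raw materials of Gatm and Gamt was split about evenly. Of 27 genes 24 were tested, and 11 rose and 10 fell in numbers 2 and 5 against 1 and 4 (median 0.07), while 9 rose and 8 fell in numbers 3 and 6 (median -0.06). Psph, the last enzyme of serine synthesis, fell from 46.7 ± 2.42 CPM to 27.6 ± 1.22 and 27.8 ± 2.16. Nnmt, which spends methyl groups on nicotinamide, fell from 15.9 ± 0.651 to 9.16 ± 0.417 CPM in numbers 2 and 5. Slc6a9, a glycine transporter of the same family as Slc6a8, fell by 0.76 on the log2 scale in numbers 3 and 6. Among those that rose were Slc7a2, an arginine carrier, from 13.05 ± 0.624 to 23.6 ± 2.73 CPM in numbers 2 and 5, and Shmt1, which interconverts serine and glycine, from 33.1 ± 1.52 to 54.6 ± 2.16 CPM in numbers 3 and 6. Mtr, the methionine synthase, rose by 0.63 in 2 and 5, and Mthfd1, an enzyme of folate metabolism, by 0.45 in 3 and 6.

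Partners of the phosphatase, 13 genes of phosphate and pyrophosphate handling, were mixed. Of 10 tested, 4 rose and 1 fell in numbers 2 and 5 against 1 and 4 (median 0.06), and 3 rose and 6 fell in numbers 3 and 6 (median -0.17). Phospho1, a phosphatase of phosphocholine that acts beside Alpl in mineralising tissue, peaked in another set than Alpl: 75.3 ± 3.55 in numbers 1 and 4, 109 ± 14.9 in 2 and 5 and 58.2 ± 3.63 CPM in 3 and 6. Ank, which exports pyrophosphate, fell by 0.70 on the log2 scale in numbers 3 and 6 (SE 0.04, adjusted p = 4.17e-15). Enpp1, which makes pyrophosphate, rose in both comparisons, by 0.62 and 0.34. Of the phosphate importers Slc20a1 fell by 0.59 in 2 and 5, and Slc20a2 rose by 0.36 in 3 and 6.

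Calcium cycling, another ATP-spending route to heat, held more tested genes called lower than higher, and the regulators gave no common direction. Of 15 calcium genes 7 were tested. In numbers 2 and 5 against 1 and 4, 2 of them rose and 4 fell (median -0.32). In numbers 3 and 6, 2 rose and 5 fell (median -0.17). Atp2a3, a calcium pump, fell with the order of Alpl, from 104 ± 4.14 CPM to 64.9 ± 3.19 and 20.5 ± 2.03. Atp2a2, another pump, fell from 445 ± 16.1 to 316 ± 15.99 CPM in numbers 3 and 6, and Itpr1, a calcium release channel, from 183 ± 4.09 to 124 ± 5.24 CPM in numbers 2 and 5. Slc8b1, the mitochondrial sodium and calcium exchanger, rose from 25.04 ± 2.33 to 93.0 ± 6.08 CPM in numbers 2 and 5. Mcu, the mitochondrial calcium channel, rose by 0.18 there, and Itpr3, another release channel, by 0.25 in 3 and 6. Among 14 regulators tested 5 rose and 5 fell (median 0.19), then 3 rose and 4 fell (median -0.02). Prdm16, a brown fat regulator, fell by 0.99 and 0.59 in the 2 comparisons, Ppara rose by 0.45 and 0.97, Crem, a cAMP-responsive factor, rose by 0.72 in 2 and 5 and Ebf2 by 0.17 in 3 and 6. Between labelled times edgeR called 0 of the 67 genes of these lists that were tested, and DESeq2 and limma-voom also called 0. By edgeR 1, 1 and 0 were at an unadjusted p under 0.05 for 4 h and 24 h against 0 h and for 24 h against 4 h. These fits held labelled time alone. With the replicate number as a block, edgeR also called 0, with 6, 5 and 4 at an unadjusted p under 0.05.

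Among thermogenic reference genes, Ucp1 and Nr4a1 had the same order of sets as Alpl. Ucp1 stood at 15.8 ± 1.97 CPM in numbers 1 and 4, 10.5 ± 0.590 in 2 and 5 and 1.81 ± 0.534 in 3 and 6 (log2 fold change -3.09 between the outer sets, SE 0.12, adjusted p = 4.12e-17). Nr4a1, an early response factor, stood at 110 ± 28.2, 10.5 ± 1.18 and 5.99 ± 0.644 CPM. Adrb3, an adrenergic receptor of fat cells, took another course, with 43.0 ± 1.47, 26.7 ± 2.83 and 93.3 ± 6.91 CPM. Adipoq, the adipocyte hormone adiponectin, rose over the sets, from 443 ± 20.9 to 594 ± 47.0 and 773 ± 68.4 CPM. Dio2, which activates thyroid hormone, stood at 2.44 ± 0.302, 0.273 ± 0.170 and 0.517 ± 0.187 CPM. Ppargc1a, the coactivator of mitochondrial genes, stood at 132 ± 4.48, 113 ± 5.68 and 131 ± 6.68 CPM and gave -0.01 between the outer sets (edgeR adjusted p = 0.801).

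For each tested member the genes with the most similar profile over the 18 libraries were found by the root mean square difference of centred log2 CPM among 10235 candidates, as a description. For Alpl they were Pgam1 and Tpi1, enzymes of glycolysis, and Tenm4, a membrane teneurin, at 0.11, 0.13 and 0.12, where the median candidate lay 0.72 away. From numbers 1 and 4 to 3 and 6 Pgam1 had a log2 fold change of -1.57, beside -1.64 for Alpl. For Gamt they were Trpt1, a tRNA phosphotransferase, Slc25a1, the mitochondrial citrate carrier, and Tigar, a phosphatase of sugar phosphates, at 0.13, 0.14 and 0.15 with a median of 0.40. For Slc6a8 they were Med29, a Mediator subunit, Rps6ka4, a kinase, and Actb, cytoplasmic actin, at 0.078, 0.090 and 0.093 with a median of 0.24. The profile of Slc6a8 itself has a root mean square of only 0.16, so more candidates lie close to it.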

How the data were processed

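The table deposited by the authors holds expected counts per gene from salmon, merged over 18 libraries, per the labels. Of the tools, edgeR and limma stand in the submitters' processing notes, with mm10 as the genome build. Salmon's version, its annotation and its use of strand are not stated in the sources used here. Ckmt1 shares 10 of its bases with Strc on the opposite strand, and Ckmt2, at 0 counts, lies opposite an antisense gene. Positions and lengths come from GENCODE M21.

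Expected counts were rounded, filtered with filterByExpr (minimum count 10, minimum total 15) and scaled by TMM, and log2 CPM used a prior count of 2. Tests were edgeR's robust quasi-likelihood F-test, two-sided, with Benjamini-Hochberg adjustment over all 14788 genes and a threshold of 0.05. Each SE and 95% interval belongs to the fitted log2 fold change. Models held labelled time alone, number set with time, or number with time.

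Deviations from the time means correlated between 0.297 and 0.718 (median 0.590) in the 18 pairs of libraries with the same number. Libraries with the 2 different numbers of a set correlated nearly as well, between 0.237 and 0.688 (median 0.569) in 18 pairs. The correlation therefore follows the number set and hardly separates single numbers, and no label ties a number to a culture or day. Named genes were the members, 6 reference genes, per list the 2 called genes with the largest rise and fall per comparison with numbers 1 and 4 at a mean log2 CPM of at least 2, and the 3 nearest genes per member. Ckm was named after its value was seen. The members, lists and number sets were chosen with earlier results of these data known. The fits were run on data simulated from these libraries, with planted changes larger than that of Slc6a8 at 4 h. That run does not bear on such small differences or on the choice of the sets. Python 3.11.15 ran with pandas 2.3.3, matplotlib 3.10.9, scipy 1.17.1 and numpy 2.4.6, and R 4.3.3 with DESeq2 1.42.0, limma 3.58.1 and edgeR 4.0.16.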

Additional observations from a re-analysis of the deposited data

Results flagged for a closer look

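Of 30 combinations of a member and a group of 6 libraries examined, 3 had 1 library far from the others. The rule flags about 1 in 20 by chance where values are independent and normally distributed. The low counts of Ckb and Ckmt1, in groups that share libraries, are not such values, so that rate does not apply to them. Ckb at 0 h was highest in replicate 4, at 0.7265 CPM from 16 counts, with the other 5 libraries between 0.3177 and 0.417 CPM. Ckmt1 was highest in replicate 5 at 24 h, at 0.663 CPM, both among the 24 h libraries and among numbers 2 and 5. That value is 2 counts in the smallest effective library of the series, the one with 41.5% of its counts in Yam1 and Gm26917.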

How the results depend on the processing

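Alpl kept its direction and its call between sets under every setting run. Of 320 counts of members under other settings, 317 stayed within 1.5 times the main one, which says little about stability. Most belong to comparisons of times, of numbers within a set, or to the interaction. There the main count was 0 and the main fit called at most 1 gene of all. Between sets, a move from 3 members to 2 still lies within 1.5 times. At 4 h against 0 h limma-voom with the replicate block and library weights called 1 member against 0, beside 33 of all 14788 genes. In numbers 3 and 6 against 1 and 4 library totals without TMM called 1 against 3, and leaving out each library or number gave 1 to 3 (1 without number 4). Library totals shifted the median gene by -0.09, 0.17 and 0.25 (log2) in the set comparisons and by -0.17 and -0.16 at 24 h against 0 h and 4 h. They moved the calls from 4378 higher and 4428 lower to 1348 and 2440 in numbers 2 and 5 against 1 and 4, from 4471 and 4362 to 3404 and 1132 in 3 and 6 against 1 and 4, and from 4230 and 4210 to 4406 and 724 in 3 and 6 against 2 and 5. They also reversed values that were not called: Gamt to -0.0781 at 24 h against 0 h and -0.0349 against 4 h, Slc6a8 to -0.0623 at 24 h against 0 h, Ppargc1a to 0.15 for 3 and 6 against 1 and 4, and for number 5 against 2 Gamt to -0.0527, Slc6a8 to -0.0445 and Alpl to -0.16. At 4 h against 0 h Alpl, 0.02 in the main model, was -0.00653 with the replicate block, -0.00277 with the number set as a factor and -0.00203 by limma-voom. The block changed no call of a member. Leaving out single libraries or numbers reversed other values that were not called. At 4 h against 0 h Gamt ran from -0.14 to 0.0738 and Alpl from -0.13 to 0.19. At 24 h against 0 h Gamt ran from -0.0153 to 0.15 and Alpl from -0.36 to 0.0374, and at 24 h against 4 h Gamt from -0.0236 to 0.19 and Alpl from -0.38 to 0.0133. For number 4 against 1 Gamt ran from -0.11 to 0.0102 and Alpl from -0.11 to 0.0474, and for number 6 against 3 Alpl from -0.28 to 0.00871. Slc6a8 in numbers 2 and 5 against 1 and 4 ran from -0.13 to 0.11, and Ppargc1a in 3 and 6 against 1 and 4 from -0.0382 to 0.00996. The cause was not tested. Depth limits Ckb, Ckmt1, Ckmt2 and Gatm, which did not pass the filter on low counts.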
